A study of Mus musculus with 4 samples.

Results

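Wnt proteins are secreted, lipid-modified signals. They bind Frizzled receptors on the cell surface and, for the branch that acts through beta-catenin, the co-receptors Lrp5 and Lrp6. Secreted proteins of the Sfrp family and Wif1 bind the ligands themselves, Dickkopf proteins bind the co-receptors, and R-spondins strengthen the signal by keeping Frizzled receptors at the membrane. When the signal is on, beta-catenin escapes the Axin complex and acts with the TCF/LEF factors in the nucleus. In the bladder this signalling takes part in exchange between the urothelium and the stroma beneath it.

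The genes described here are the Wnt ligands, the Frizzled receptors, the co-receptors, the R-spondins, the secreted antagonists, Axin and the TCF/LEF factors, taken by gene symbol. They number 46 of the 15366 named genes on the arrays, and have 63 probes. Where a gene had several probes, its brightest probe, by the mean of the 4 arrays, stood for it. Axin1, Fzd9, Rspo4 and Tcf7, for which the annotation names no probe, were not analysed here. By role the genes are 19 Wnt ligands, 3 R-spondins, 9 Frizzled receptors, 2 co-receptors, 9 secreted antagonists, 1 Axin gene and 3 TCF/LEF factors.

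The arrays hold total RNA of bladders from male mice on a normal diet. In the obstructed group, of 2 arrays, the outlet of the bladder had been partly closed by surgery for 14 days, so that the organ emptied against resistance. The sham group, also of 2 arrays, had the operation without the obstruction. The labels give no strain or age. They also do not say whether each array is a separate animal, so the p-values reflect only how far these samples spread, and that spread may be technical. Values are log2 intensities, and the median of all probes was 5.80 in each array. A mean above that median is used here as a rough mark of signal, because no detection call was available, and values near it may be mostly background. The level of one probe cannot be set against that of another, so only differences between arrays are compared. In bulk RNA of a tissue, fewer cells of a type and less RNA per cell cannot be told apart.

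The tissue markers were present. Upk2, a plaque protein of the urothelium, lay between 13.82 and 14.11 in the 4 arrays, and Actg2, the actin of visceral smooth muscle, between 15.30 and 15.63. Obstructed replicate 2 stood apart from the rest. It correlated with the other arrays at 0.961 to 0.969 over all probes, where the other pairs correlated at 0.981 to 0.989. Secretory genes of the male accessory glands had a higher mean in obstructed bladders for 11 of 11 measured markers, with a summed linear intensity of 24933 and 257562 in obstructed replicates 1 and 2, against 8162 and 601 in sham replicates 1 and 2. Of the markers with the widest gap, Svs2, a seminal vesicle protein, measured 9.16 and 14.96 in obstructed and 5.39 and 5.21 in sham bladders. Smooth muscle markers summed to 121344 and 79611 in obstructed replicates 1 and 2, against 128849 and 155326 in sham replicates 1 and 2, with 7 of 10 means lower. Fibroblast markers summed to 47050.5 and 28963.6 in obstructed and 41807 and 45663 in sham bladders, also with 7 of 10 means lower. Adipocyte markers were lower in both obstructed arrays, with sums of 2464 and 2126 in obstructed and 6504 and 4816 in sham bladders and 7 of 9 means lower. Skeletal muscle markers had 8 of 8 means lower, with sums of 11357 and 6686 in obstructed and 18569 and 23518 in sham bladders. The part of these lists in the differences below was not tested.

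None of the 46 Wnt pathway genes changed past the test: 0 had an adjusted p below 0.05 by limma with Benjamini-Hochberg adjustment over all 15366 genes, of which 0.0521% were called. At an unadjusted p below 0.05, 2 were lower, Wnt2b and Fzd10, and 0 were higher, against 5.09% lower and 3.05% higher among all genes. In 11 genes (23.9%) both obstructed arrays were below both sham arrays and in 4 (8.70%) above them, where the shares among all genes were 21.6% and 17.6%. Differences, always obstructed minus sham, had a median of -0.03, against -0.02 over all genes, and a median size of 0.13, against 0.15 over all genes. Of the 46 genes, 31 had a mean above the median of all probes (67.4%, against 68.8% of all genes). All 9 Frizzled receptors were among them, with 11 of the 19 Wnt ligands and 4 of the 9 secreted antagonists. Some were only just above it, as Fzd4 at a mean of 5.82 and Fzd8 at 5.95, and may be mostly background.

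**Figure D1:**
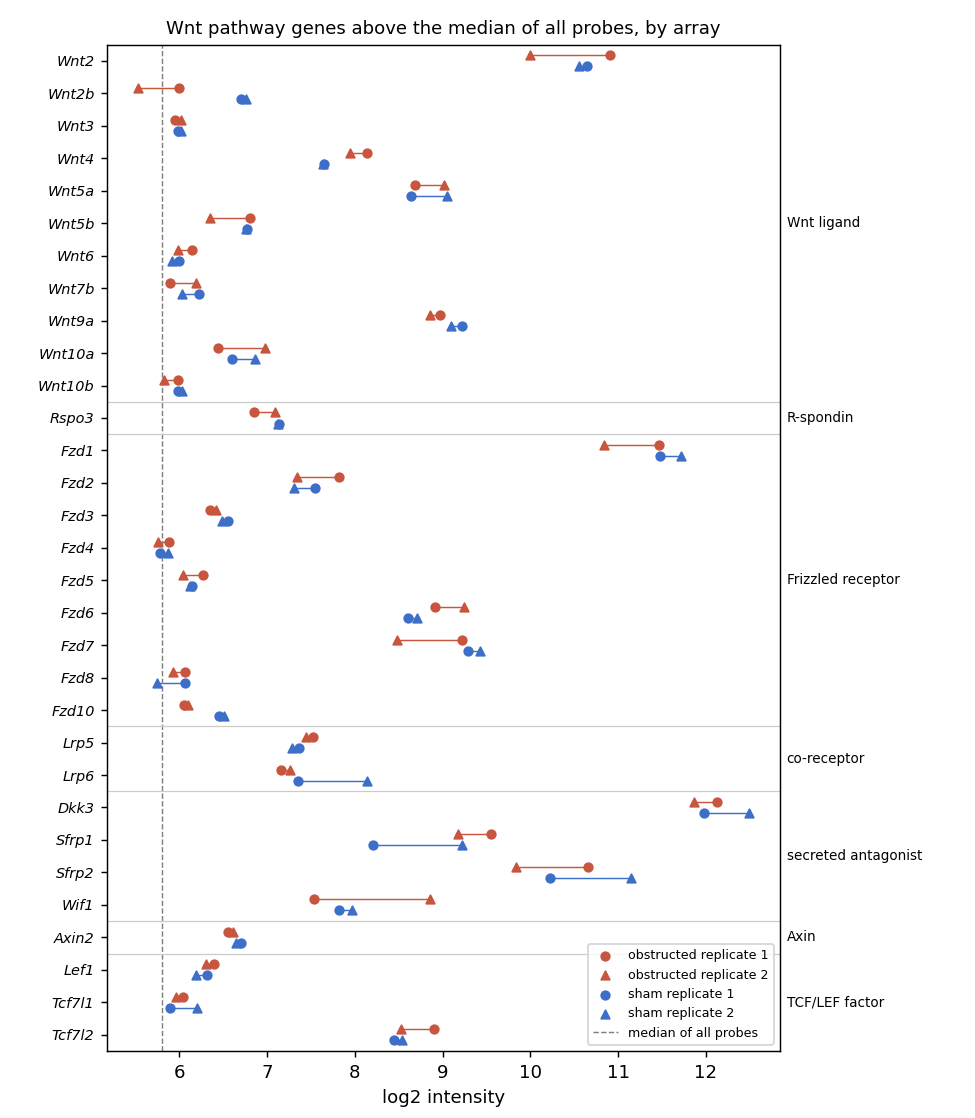
Log2 intensity (horizontal axis) of the 31 genes with a mean above the median of all probes, 1 gene per row, with the 2 obstructed arrays above the 2 sham arrays and a line joining the arrays of a group. Both obstructed arrays lie below both sham arrays in 9 genes (29.0%), among them Wnt2b and Fzd10. They lie above in 3 (9.68%), among them Wnt4 and Fzd6. The shares of all genes above that median are 23.1% and 18.1%. The arrays of Sfrp1, Sfrp2 and Wif1 lie wide apart within a group.

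Among the ligands, Wnt2b had the largest difference of all 46 genes. Wnt2b is a ligand of mesenchyme that signals through beta-catenin. Its brightest probe (3130088) measured 5.99 and 5.53 in obstructed replicates 1 and 2, against 6.71 and 6.76 in sham replicates 1 and 2. Both obstructed arrays lay below both sham arrays, and 1 of them below the median of all probes, where values may be mostly background. The means were 5.76 ± 0.33 in obstructed and 6.74 ± 0.04 in sham bladders (SD, n = 2 each), a log2 difference of -0.98 (SE 0.19, 95% interval -1.43 to -0.52), or 1.97-fold lower. By limma the unadjusted p was 0.00196 and the adjusted p 0.247. With obstructed replicate 1 left out the difference was -1.21, and with obstructed replicate 2 left out -0.74. With sham replicate 1 left out it was -1.004, and with sham replicate 2 left out -0.95. Such fits assume that the lone array of a group varies like the arrays of the other group, so their p-values are not given. In an unmoderated fit of all arrays the adjusted p was 0.732. A second probe of Wnt2b (5960575), annotated to the same transcript, did not show the difference: it measured 6.10 and 6.08 in obstructed and 6.13 and 6.03 in sham bladders, a difference of 0.01 (SE 0.13). With the probes of each gene averaged, Wnt2b differed by -0.48. Mesothelial markers, 6 of 6 with a lower mean, had a median against the sham mean of -0.25 in the first obstructed array and -1.30 in the second. They summed to 6173 and 5813 linear units in obstructed and 8521 and 6748 in sham bladders. Adipocyte markers had a median against the sham mean of -1.001 in the first obstructed array and -1.22 in the second. The part of either list in the value of Wnt2b was not tested. The promoter window of Wnt2b is shown because the gene had the largest difference. It covers 250 bases before to 50 after the start of the gene in RefSeq's GRCm38.p6, at chr3:104961660-104961959 on the minus strand, and 79.7% of it is G or C.
Wnt2b: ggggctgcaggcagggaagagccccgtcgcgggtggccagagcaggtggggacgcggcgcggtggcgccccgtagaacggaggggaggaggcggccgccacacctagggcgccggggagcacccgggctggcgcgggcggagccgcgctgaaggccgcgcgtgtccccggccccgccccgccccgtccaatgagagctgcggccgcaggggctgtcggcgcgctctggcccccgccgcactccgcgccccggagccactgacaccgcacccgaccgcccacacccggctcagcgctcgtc

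Wnt4 was the ligand with the largest higher difference. It is a ligand known from the development of the kidney and the female reproductive tract. It measured 8.13 and 7.94 in obstructed bladders, against 7.64 and 7.64 in sham bladders. The sham arrays were nearly equal, and both obstructed arrays lay above them. The difference was 0.40 (SE 0.18, 95% interval -0.05 to 0.84), 1.32-fold higher, with an unadjusted p of 0.0743 and an adjusted p of 0.651 by limma. Wnt9a was lower in both obstructed arrays, at 8.97 and 8.86, against 9.22 and 9.10 in the sham arrays, a difference of -0.25 (SE 0.20). A dimmer probe of Wnt9a, not above the median of all probes, differed by 0.17 (SE 0.13).

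Wnt2 and Wnt5a, ligands that mesenchymal cells make in many organs, had group means close to each other. Wnt2 measured 10.90 and 10.001 in obstructed replicates 1 and 2, against 10.64 and 10.55 in sham replicates 1 and 2. The obstructed arrays thus lay on both sides of the sham arrays, and the difference was -0.14 (SE 0.32). Wnt5a, the best known ligand of the branches that do not use beta-catenin, measured 8.69 and 9.02 in obstructed and 8.64 and 9.05 in sham bladders, with overlapping groups and a difference of 0.01 (SE 0.25). A dimmer probe of Wnt5a differed by 0.38 (SE 0.19). Wnt5b, its close relative, measured 6.81 and 6.35 in obstructed and 6.78 and 6.76 in sham bladders, a difference of -0.19, with obstructed replicate 2 alone below the others.

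The other ligands above the median of all probes differed little. They were Wnt6 (0.10), Wnt3 (-0.01), Wnt10a (-0.02), Wnt7b (-0.08) and Wnt10b (-0.10), and their groups overlapped. Wnt1, Wnt3a, Wnt7a, Wnt8a, Wnt8b, Wnt9b, Wnt11 and Wnt16 were not above the median, with values between 4.94 and 5.74 and differences between -0.21 and 0.20, so that their values say little. Of the R-spondins, Rspo3 was above the median and measured 6.85 and 7.10 in obstructed and 7.14 and 7.12 in sham bladders. Both obstructed arrays lay below the sham arrays, 1 of them narrowly, and the difference was -0.16 (SE 0.17). Rspo1 and Rspo2 were not above the median and differed by -0.06 and -0.14.

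**Figure D2:**
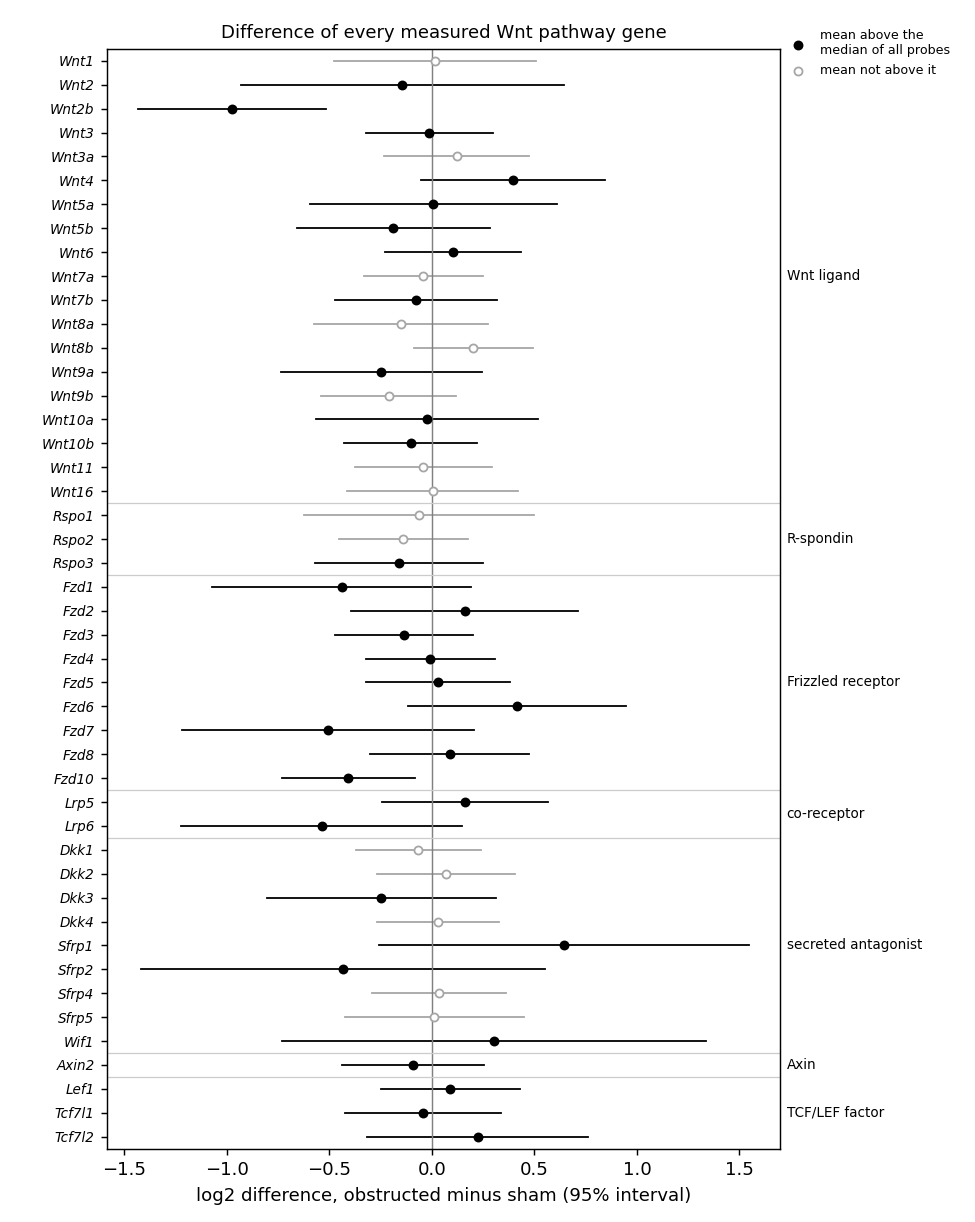
Log2 difference, obstructed minus sham, of each of the 46 genes with its 95% interval from limma (horizontal axis), by role; filled points have a mean above the median of all probes. The intervals of Wnt2b and Fzd10 lie below 0 and those of the other genes reach across it.

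The Frizzled receptors, which bind Wnt ligands through a cysteine-rich domain, had 5 lower and 4 higher means in obstructed bladders, and 0 of the 9 passed the test. Fzd10 was the receptor with the smallest p. Its brightest probe measured 6.05 and 6.10 in obstructed bladders, against 6.45 and 6.51 in sham bladders. The groups did not overlap and the spread within each group was small. The difference was -0.41 (SE 0.13, 95% interval -0.73 to -0.08), for which limma gave an unadjusted p of 0.0216 and an adjusted p of 0.517. A dimmer probe of Fzd10, below the median of all probes, went the other way, with 5.60 and 5.47 in obstructed and 5.02 and 5.35 in sham bladders, and the mean of the probes differed by -0.03.

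Fzd7 and Fzd1, receptors close to each other in sequence, were lower mainly in 1 obstructed array. Fzd7 measured 9.22 and 8.48 in obstructed replicates 1 and 2, against 9.29 and 9.42 in sham replicates 1 and 2. Fzd1 measured 11.46 and 10.84 in obstructed replicates 1 and 2, against 11.47 and 11.71 in sham replicates 1 and 2. For both genes obstructed replicate 1 lay just under the lower sham array and obstructed replicate 2 well under it. Fzd7 differed by -0.51 (SE 0.29) and Fzd1 by -0.44 (SE 0.26), with limma adjusted p-values of 0.712 and 0.716. With obstructed replicate 1 left out, Fzd7 differed by -0.88 and Fzd1 by -0.75. Without obstructed replicate 2 they differed by -0.14 and -0.13. The smooth muscle markers had a median against the sham mean of -0.08 for obstructed replicate 1 and -0.997 for obstructed replicate 2. Other lists were also lower in obstructed replicate 2: fibroblast (0.15 and -0.67), mesothelial (-0.25 and -1.30) and skeletal muscle markers (-0.09 and -0.74). So were macrophage and leukocyte (0.36 and -0.68) and endothelial markers (0.23 and -0.33). Urothelial markers were at -0.004 and 0.003, and accessory gland markers at 3.34 and 8.67. The part of any list was not tested.

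Fzd6, a receptor that acts in planar polarity of epithelia, was the receptor with the largest higher difference. It measured 8.91 and 9.24 in obstructed bladders, against 8.61 and 8.71 in sham bladders. Both obstructed arrays lay above the sham arrays, obstructed replicate 2 furthest. The difference was 0.41 (SE 0.22, 95% interval -0.12 to 0.95), with an adjusted p of 0.696 by limma. The urothelial markers had a median against the sham mean of -0.004 and 0.003 in obstructed replicates 1 and 2, and the accessory gland markers of 3.34 and 8.67. The part of either tissue in the value of Fzd6 was not tested. Of the remaining receptors Fzd2 differed by 0.16, Fzd8 by 0.09, Fzd5 by 0.03, Fzd4 by -0.01 and Fzd3 by -0.14. The promoter windows of Fzd10, Fzd7 and Fzd1 are shown as the receptors with the largest lower differences. The plus strand window of Fzd10 is chr5:128600856-128601155, that of Fzd7 chr1:59481897-59482196, and the minus strand window of Fzd1 chr5:4758167-4758466, all in GRCm38.p6. Capitals mark CTTTGA, 1 form of the core of the TCF/LEF binding motif, or its complement TCAAAG on the other strand. Other forms of the core were not searched for and are not marked.
Fzd10: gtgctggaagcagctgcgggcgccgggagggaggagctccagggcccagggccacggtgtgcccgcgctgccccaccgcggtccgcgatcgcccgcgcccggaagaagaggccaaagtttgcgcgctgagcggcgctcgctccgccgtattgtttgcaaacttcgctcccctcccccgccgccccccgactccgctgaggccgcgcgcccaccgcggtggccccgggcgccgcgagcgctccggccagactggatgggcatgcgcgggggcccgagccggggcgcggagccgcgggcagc
Fzd7: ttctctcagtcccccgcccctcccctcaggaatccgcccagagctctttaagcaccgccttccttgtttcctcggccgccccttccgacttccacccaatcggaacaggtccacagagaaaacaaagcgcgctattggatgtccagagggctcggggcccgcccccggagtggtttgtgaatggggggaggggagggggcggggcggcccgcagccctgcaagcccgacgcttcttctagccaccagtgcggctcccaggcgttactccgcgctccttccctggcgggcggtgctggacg
Fzd1: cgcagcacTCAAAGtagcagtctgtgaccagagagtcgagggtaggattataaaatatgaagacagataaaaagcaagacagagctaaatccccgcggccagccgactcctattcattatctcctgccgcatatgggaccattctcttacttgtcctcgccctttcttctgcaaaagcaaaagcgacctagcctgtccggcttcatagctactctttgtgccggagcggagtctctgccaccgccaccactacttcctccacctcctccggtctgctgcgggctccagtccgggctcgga

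The stretch CTTTGA, on either strand, was in the Fzd1 window and not in those of Fzd10, Fzd7 or Wnt2b. This does not show that those windows lack the motif, because its other forms were not searched for. Of 37 promoter windows that RefSeq's table held for 30 of the 46 genes, 5 (13.5%) had CTTTGA on either strand, against 16% of 32851 windows of all genes. They belong to Dkk1, Fzd1, Lef1, Wnt11 and Wnt5b. The 37 windows had a median GC content of 67.3%, against 52.7% over all windows. A match is only a stretch of letters, and its absence concerns these 300 bases alone.

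The co-receptors differed in opposite directions. Lrp6 measured 7.15 and 7.26 in obstructed bladders, against 7.35 and 8.14 in sham bladders. Both obstructed arrays lay below both sham arrays, but the sham arrays were further apart from each other than the lower of them was from the obstructed arrays. The difference was -0.54 (SE 0.28, 95% interval -1.22 to 0.15), and its limma adjusted p was 0.694. It was -0.15 without sham replicate 2. Lrp5 measured 7.53 and 7.45 in obstructed and 7.36 and 7.29 in sham bladders, a difference of 0.16 (SE 0.17). A dimmer probe of Lrp5, not above the median of all probes, differed by -0.04 (SE 0.13).

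Among the secreted antagonists above the median of all probes, the means of Sfrp1 and Wif1 were higher in obstructed bladders and those of Sfrp2 and Dkk3 lower. In all of them the groups overlapped. Sfrp1, a decoy that carries a Frizzled-like domain, measured 9.55 and 9.17 in obstructed bladders, against 8.20 and 9.23 in sham bladders. Sham replicate 1 was low and sham replicate 2 lay between the obstructed arrays. The difference was 0.65 (SE 0.37, 95% interval -0.26 to 1.55), and its limma adjusted p was 0.709. It was 0.13 without sham replicate 1. Sfrp2, its relative, measured 10.66 and 9.83 in obstructed and 10.22 and 11.14 in sham bladders, a difference of -0.43 (SE 0.40), for which limma gave an adjusted p of 0.828. The arrays of Sfrp2 lay further apart within each group than the group means did.

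Wif1, which binds Wnt ligands outside the cell through a domain of its own, measured 7.54 and 8.86 in obstructed replicates 1 and 2, against 7.82 and 7.96 in sham replicates 1 and 2. Obstructed replicate 1 was the lowest array and obstructed replicate 2 the highest. The difference was 0.30 (SE 0.42), but with obstructed replicate 1 left out it was 0.96, and with obstructed replicate 2 left out it was -0.36. The accessory gland markers were also highest in obstructed replicate 2. All 11 of them exceeded both sham arrays in obstructed replicate 1 as well, but by less. Their medians against the sham mean were 3.34 and 8.67, the smaller one belonging to obstructed replicate 1. The part of these glands in the value of Wif1 was not tested. Dkk3, a Dickkopf relative that does not act on the co-receptors as its family does, measured 12.12 and 11.86 in obstructed and 11.98 and 12.50 in sham bladders, a difference of -0.25 (SE 0.23). Dkk1, Dkk2, Dkk4, Sfrp4 and Sfrp5 were not above the median of all probes, and differed by between -0.07 and 0.07.

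Inside the cell, Axin2, a scaffold of the complex that degrades beta-catenin and itself a widely used target of the signal, measured 6.56 and 6.61 in obstructed and 6.70 and 6.65 in sham bladders. The groups did not overlap, but by a narrow margin, and the difference was -0.09 (SE 0.14, 95% interval -0.44 to 0.25) with an adjusted p of 0.904 by limma. Tcf7l2, a TCF factor that partners beta-catenin on DNA, measured 8.91 and 8.53 in obstructed and 8.45 and 8.54 in sham bladders, a difference of 0.22 (SE 0.22). Obstructed replicate 1 was high and obstructed replicate 2 lay among the sham arrays. Lef1 differed by 0.09 and Tcf7l1 by -0.04, with overlapping groups.

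Genes with more than 1 probe gave a check on these values. Of 15 such genes, 10 had probes that differed in sign, in most cases with a dimmer probe not above the median. In 4 genes, Wnt2b, Wnt5a, Wnt6 and Fzd5, at least 2 probes were above it, and in Wnt2b and Wnt6 these differed in sign. The probes of Wnt6 differed by 0.10 and -0.19.

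**Figure D3:**
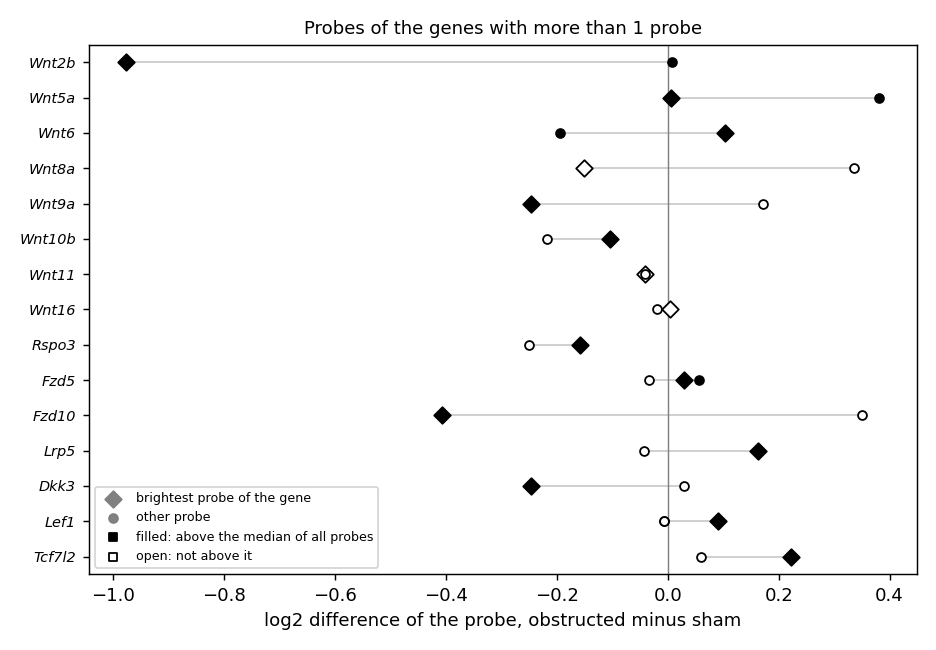
Log2 difference of each probe, obstructed minus sham (horizontal axis), for the 15 genes with more than 1 probe; diamonds are the brightest probe of a gene, circles the others, and filled marks lie above the median of all probes. For Wnt2b the brightest probe lies at -0.98 and the other at 0.01, and for Fzd10 they lie at -0.41 and 0.35.

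The obstructed arrays differed from each other more than the sham arrays did. Over the 31 genes above the median of all probes, the median gap between obstructed replicates was 0.25, against 0.10 between sham replicates, where all genes above the median gave 0.24 and 0.16. Obstructed replicate 2 lay below the other 3 arrays in 11 of the 31 genes (35.5%, against 36.4% of all genes above the median) and above them in 4 (12.9%, against 24.9%). The 4 that it was above in were Wif1, Fzd6, Wnt10a and Wnt3. With obstructed replicate 1 left out, 4 of the 46 genes were called at an adjusted p below 0.05 by limma, against 8.45% of all genes: Wnt2b, Wif1, Fzd7 and Fzd1. With obstructed replicate 2 left out 1 was called, Wnt2b, against 2.1% of all genes.

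**Figure D4:**
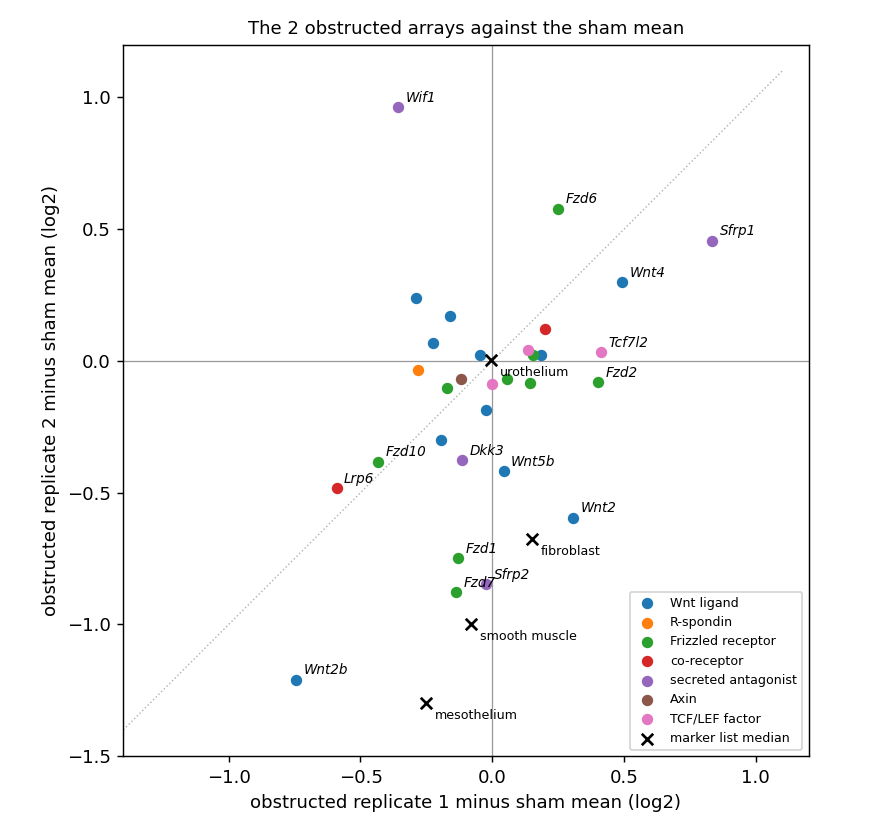
Log2 value of obstructed replicate 1 (horizontal axis) and obstructed replicate 2 (vertical axis), each minus the sham mean, for the 31 genes above the median of all probes, coloured by role, with crosses for the medians of 4 marker lists; the dotted line marks equal values. Wnt2b, Wnt4, Fzd10, Lrp6 and Sfrp1 lie on the same side of 0 in both arrays, whereas Wif1 and Wnt2 change sides.

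Other genes of the pathway, from 7 lists, were read in the same fit. Of 82 measured genes that are not among the 46, 0 had an adjusted p below 0.05 by limma. At an unadjusted p below 0.05 there were 5 higher and 5 lower, where all genes gave 3.05% and 5.09%, and the median difference was 0.02. The largest lower difference was that of Sostdc1, a secreted protein that binds Lrp6 and bone morphogenetic proteins. It measured 7.37 and 6.97 in obstructed bladders, against 8.88 and 8.99 in sham bladders. Both obstructed arrays lay far below both sham arrays, with a difference of -1.76 (SE 0.22, 95% interval -2.29 to -1.23), an unadjusted p of 1.79e-04 and an adjusted p of 0.104 by limma. The difference was -1.96 with obstructed replicate 1 left out and -1.56 with obstructed replicate 2 left out. It was -1.81 with sham replicate 1 left out and -1.70 with sham replicate 2 left out. With the replicate block the adjusted p by limma was 0.202. In its list of 10 measured extracellular modulators, Adgra2, a co-receptor for Wnt7 ligands in vessels of the brain, differed by -0.58, Kremen1, a Dickkopf receptor, by 0.43 and the bone antagonist Sost, not above the median of all probes, by 0.51. With probes averaged Adgra2 differed by -0.15 and Kremen1 by 0.12. Sost was 0.26 without obstructed replicate 1, and Adgra2 -0.36 without obstructed replicate 2.

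The target list, of 25 measured genes that respond to beta-catenin in various tissues, had a median of 0.04, with 13 higher means and 12 lower. Its largest differences were those of a pair of matricellular genes once named for induction by Wnt. Ccn4 measured 8.47 and 8.29 in obstructed bladders, against 6.88 and 7.17 in sham bladders. Ccn5 measured 11.48 and 9.71 in obstructed bladders, against 8.43 and 8.94 in sham bladders. In both genes the obstructed arrays lay above the sham arrays, in Ccn5 with a wide gap between obstructed replicates. Ccn4 differed by 1.35 (SE 0.20) and Ccn5 by 1.91 (SE 0.56), with limma adjusted p-values of 0.149 and 0.482. With obstructed replicate 1 left out Ccn4 differed by 1.26 and Ccn5 by 1.03, and with obstructed replicate 2 left out by 1.45 and 2.80. With either sham replicate left out it was 0.999 for both genes, and with the probes of a gene averaged Ccn4 differed by 0.87. Id2, a regulator of basic helix-loop-helix factors, differed by -0.64, by -0.73 without obstructed replicate 1 and by -0.55 without obstructed replicate 2. The transcription factor Sp5 differed by 1.17, at 6.53 and 8.17 in obstructed replicates 1 and 2, against 6.18 and 6.19 in sham bladders, and by 0.34 without obstructed replicate 2.

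Of 13 alternative receptors and polarity genes, Ror1, a receptor tyrosine kinase that binds Wnt5a, measured 8.31 and 7.46 in obstructed and 8.86 and 8.81 in sham bladders, a difference of -0.95 (SE 0.31). Its relative Ror2 differed by 0.60 and the polarity genes Vangl2 and Celsr2 by -0.38 and 0.38. Ror2 differed by -0.02 without obstructed replicate 1. With probes averaged Ror1 differed by -0.59, Vangl2 by -0.07 and Celsr2 by 0.23, and without sham replicate 2 Celsr2 differed by 0.14. Of 22 genes of the cytoplasmic relay, Nkd2, which binds Dishevelled, measured 9.16 and 7.88 in obstructed replicates 1 and 2, against 9.47 and 9.85 in sham replicates 1 and 2, a difference of -1.14 (SE 0.43). Without obstructed replicate 1, Ror1 and Nkd2 differed by -1.37 and -1.78, and without obstructed replicate 2 by -0.52 and -0.50. Nkd1, Amer1 and Cby1 in the same list differed by -0.40, -0.32 and -0.31. Without obstructed replicate 2 they differed by 0.06, -0.17 and -0.12, and without obstructed replicate 1 by -0.86, -0.48 and -0.49.

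Of 6 genes of Wnt secretion and processing, the glypican Gpc3 differed by -0.60, Porcn, the enzyme that attaches the lipid to Wnt proteins, by -0.38, Notum, which removes it, by -0.20 and Gpc4 by 0.37. Of 3 genes in a list for R-spondin receptors and Frizzled turnover, Lgr5 differed by -0.34 and Rnf43, an enzyme that removes Frizzled receptors, by 0.22. Tspan12, in the same list though of neither kind, differed by 0.30. Several of these values rested on 1 obstructed array: Gpc4 differed by -0.04 without obstructed replicate 1, and without obstructed replicate 2 Tspan12 differed by -0.10, Rnf43 by -0.29, Gpc3 by -0.27, Porcn by -0.18 and Lgr5 by -0.17. Of 8 nuclear cofactors, the corepressor genes Tle3 and Tle1 differed by 0.39 and 0.40, Bcl9l, a beta-catenin partner, by 0.41 and Smarca4 by 0.22. In each of these 4 cofactors both obstructed arrays lay above both sham arrays, as in 17.6% of all genes, and the adjusted p by limma ran from 0.584 to 0.818. They were named for the smallest p of their list. With probes averaged Tle3 differed by 0.09 and Tle1 by 0.18, and Tle1 was 0.20 without obstructed replicate 2, Bcl9l 0.21 and Smarca4 0.14 without obstructed replicate 1.

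**Figure D5:**
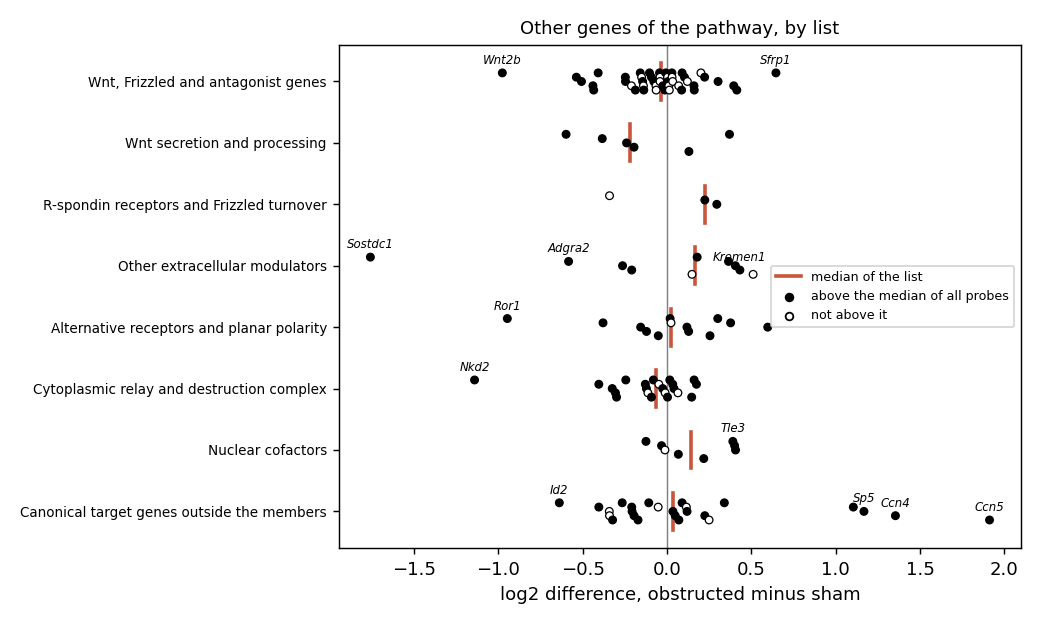
Log2 difference, obstructed minus sham (horizontal axis), of the 46 genes in the top row and of the other pathway genes by list below, 1 point per gene, filled where the mean is above the median of all probes; the vertical bar is the median of the list, and a gene in 2 lists is drawn in both. Most points lie close to 0, with Sostdc1 at -1.76 and Ccn5 at 1.91 at the ends.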

How the data were processed

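The deposited table of the authors gives 1 log2 value per probe and array for 46657 probes, judged to be log2 from its range of 4.14 to 15.63, since neither header nor label states the scale. Per the labels, biotinylated cRNA was hybridised to Illumina arrays. The sorted columns differed by at most 0.0252, as quantile normalization leaves them. For background correction and filters the labels and headers give nothing. Platform annotation named 22380 probes with 1 gene and 24277 with none.

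The comparison of obstructed and sham arrays used limma 3.58.1 in R 4.3.3 (lmFit, eBayes with a mean-variance trend, two-sided) on 1 probe per gene, with no filter and Benjamini-Hochberg adjustment over 15366 genes. Standard errors rest on a median of 6.04 degrees of freedom. Of these, 2 come from a gene's own arrays and the rest from the variance trend over all genes. The number of arrays limits the precision. The fit was tested on simulated data. Replicate numbers are shared between groups, but the deviations of same-numbered arrays correlated at -0.0165 over genes, so the numbers were not used as pairs. The genes and lists were chosen with earlier results of these data known. Among the 46 genes, values in each array were given for those with a p below 0.05, or above the median of all probes with a difference of at least 0.5. They were also given for others, chosen after their values were seen. From each pathway list up to 4 genes with the smallest p were named, and those given by array were chosen after their values were seen. Lists that share genes were counted once in totals. Alternatives were renormalization, centring, flooring at 50 linear units, removal of dim genes, other probe choices and variance models, the replicate block, each array left out, and an adjusted p below 0.1. Figures were made with Python 3.11.15 and matplotlib 3.10.9.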

Additional observations from a re-analysis of the deposited data

How the results depend on the processing

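Other variance models and the block cannot move a log2 difference. Centring did not move any here, because the arrays had the same median. With arrays left out or probes averaged, the difference ran from -1.21 to -0.48 for Wnt2b, -0.44 to -0.03 for Fzd10, -0.88 to -0.14 for Fzd7, -0.93 to -0.15 for Lrp6 and 0.13 to 1.16 for Sfrp1, while the dimmer probe of Fzd10 on its own was at 0.35. The count of the 46 genes called was 0 in each alternative that kept all arrays, and 0 to 4 with 1 array left out. The count at an unadjusted p below 0.05 was 1 with all probes of a gene averaged and 2 to 9 with 1 array left out, against 2 as reported. The median difference ran from -0.0745 to 0.00224 with 1 array left out. Over all genes, 8 were called as reported, 0 with the floor of 50 or an unmoderated fit, 3 with dim genes removed, 18 with every probe tested on its own, 17 with a robust trend, 23 at an adjusted p below 0.1, and 0 to 1299 with 1 array left out. With the replicate block 1 was called, and Wnt2b and Fzd10 had adjusted p-values of 0.333 and 0.602 by limma; it changed no call among the 46 genes. The cause of these shifts was not tested. With 2 arrays per group, 15 of the 46 genes not above the median of all probes and others only just above it, small differences cannot be seen.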

Other observations

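The Wnt genes include 4 pairs that are neighbours among the protein-coding genes of their chromosome in the GRCm38.p6 annotation. Wnt6 and Wnt10a, on chromosome 1, differed by 0.10 and -0.02 between obstructed and sham bladders. On chromosome 11, Wnt3a and Wnt9a differed by 0.12 and -0.25, and Wnt9b and Wnt3 by -0.21 and -0.01. Wnt10b and Wnt1, on chromosome 15, differed by -0.10 and 0.01. Both genes of a pair were above the median of all probes only for Wnt6 and Wnt10a.

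Some further pathway genes, named after their values were seen, differed between the obstructed arrays. Sox9, a transcription factor listed among the targets, measured 7.28 and 9.42 in obstructed replicates 1 and 2, against 7.22 and 7.28 in sham replicates 1 and 2. Rnf43 measured 7.02 and 8.04 in obstructed replicates 1 and 2, against 7.29 and 7.32 in sham replicates 1 and 2. Ror2 went the other way, at 8.59 and 7.36 in obstructed replicates 1 and 2, against 7.31 and 7.43 in sham replicates 1 and 2. With obstructed replicate 1 left out Sox9 differed by 2.17, Rnf43 by 0.74 and Ror2 by -0.02. With obstructed replicate 2 left out they differed by 0.04, -0.29 and 1.21. The accessory gland markers had medians against the sham mean of 3.34 and 8.67 in obstructed replicates 1 and 2. Their part in these values was not tested.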
